A study of Mus musculus with 6 samples.

Results

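The interferon regulatory factors (IRFs) of the mouse hippocampus were examined after bilateral carotid artery stenosis (BCAS). The 8 genes Irf1, Irf2, Irf3, Irf4, Irf5, Irf7, Irf8 and Irf9 were chosen by symbol among the 54752 genes of the count tables, and all 8 were found and passed the filter on low counts. RNA-seq libraries came from the whole right hippocampus of wild-type (WT) C57BL/6 male mice (C57BL/6 J in the methods of the study) aged 14 weeks, 3 with sham operation and 3 with BCAS, taken 3 weeks after surgery. In BCAS mice both common carotid arteries were fitted with a microcoil, the narrower one on the right, and sham mice had the operation with no coil. Each library is 1 mouse that survived surgery, and the bulk tissue holds neurons, glia, vessels and immune cells together.

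IRFs are transcription factors that share an N-terminal DNA-binding domain, which reads GAAA repeats in the interferon-stimulated response elements (ISREs) of interferon and interferon-induced genes. IRF3 and IRF7 switch on the genes of type I interferons after kinases of innate sensing pathways phosphorylate them, and IRF9 is the DNA-binding subunit of the complex ISGF3, which carries the signal of the type I interferon receptor to its target genes. IRF1 is an interferon-induced activator, IRF2 competes with it for the same sites, IRF5 and IRF8 are best known from macrophages and microglia, and IRF4 from lymphocytes and dendritic cells.

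Promoter windows of all 8 members, from 250 bases before to 50 bases after each RefSeq start in GRCm38.p6, were searched on both strands for the ISRE core (GAAA, any 2 bases, GAAA), for the gamma-activated site (GAS) TTCNNNGAA bound by STAT dimers, and for the kappa B motif (GGGA, any 4 bases, CC) bound by NF-kappa B. The letters of the motifs were found in 3 members for GAS (Irf1, Irf2 and Irf8), in 1 for the ISRE (Irf2) and in 3 for kappa B (Irf1, Irf4 and Irf8). Of the 27025 genes that have a promoter window of this length, 9.55% have a window with the GAS letters, 3.99% with the ISRE letters and 22.9% with the kappa B letters. The windows of Irf3, Irf5, Irf7 and Irf9 hold none of these letters, which says nothing of sites elsewhere or of other spellings. The RefSeq starts used for Irf9 lie 414 and 1008 bases inside the gene of the count tables. The bases before the start of Irf9 in those tables were therefore not searched. For Irf7 the RefSeq start lies 57 bases inside. Stretches of the windows of Irf8, Irf1 and Irf2 are shown because both kinds of match occur in Irf8 and Irf1, which were DEGs, and because Irf2, which moved least, holds an ISRE and a GAS match side by side. Motif matches are in capitals, the 3 genes lie on the plus strand, which is the strand printed, and no match overlaps another.
Irf8, chr8:120736157-120736407, with 2 GAS matches followed by 2 kappa B matches (the last on the opposite strand): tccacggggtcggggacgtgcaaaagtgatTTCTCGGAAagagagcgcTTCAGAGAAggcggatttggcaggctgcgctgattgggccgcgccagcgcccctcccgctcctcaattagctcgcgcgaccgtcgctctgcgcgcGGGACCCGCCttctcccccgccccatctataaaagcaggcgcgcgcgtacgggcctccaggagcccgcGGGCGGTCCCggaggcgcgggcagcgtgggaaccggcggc
Irf1, chr11:53769894-53770040, with a GAS match and then a kappa B match read on the opposite strand: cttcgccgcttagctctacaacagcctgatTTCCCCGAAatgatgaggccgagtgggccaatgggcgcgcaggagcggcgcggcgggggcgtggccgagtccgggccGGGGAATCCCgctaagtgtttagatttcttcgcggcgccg
Irf2, chr8:46739495-46739559, with an ISRE match and then a GAS match: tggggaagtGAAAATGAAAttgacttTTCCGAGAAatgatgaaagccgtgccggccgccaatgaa

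The libraries held 29652456 to 35607098 counts, and mitochondrial genes took 6.03% to 6.99% of them. CPM is a gene's count scaled to the library's total with edgeR's TMM factors, and RPKM is the same value per kilobase of exon, used where levels of different genes are compared. A count of 0 allows up to 3 counts, or 0.0875 to 0.0995 CPM, a limit that covers counting error only and takes counts as independent. Each mate was counted as its own read, so the limit is too low where both mates of a fragment were counted. Adjusted P values are from edgeR's quasi-likelihood test over the 18617 tested genes with Benjamini-Hochberg adjustment. A gene rose or fell where this value was under 0.05, and it was a differentially expressed gene (DEG) where the absolute log2 fold change was also above 1, as in the methods of the study. Markers of hippocampal neurons were abundant in every library, and 8 of the 10 fell, beside 13.2% of all tested genes. Neurod6 was lowest at a log2 fold change of -1.55. Choroid plexus markers differed between libraries irrespective of group, with summed levels from 48.2 to 5982 CPM.

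Of the 8 family members, 7 rose in BCAS mice and none fell, against 18.0% of all tested genes higher and 13.2% lower in these mice. Irf1, Irf5, Irf7, Irf8 and Irf9 were up-regulated DEGs, 5 of 8, against 8.47% of all tested genes that were up-regulated and 0.999% that were down-regulated DEGs. The log2 fold changes had a median of 1.70 and ran from 0.41 to 4.31, beside a median of 0.018 over all tested genes. Every BCAS mouse was above every sham mouse for all 8 members, a pattern seen in 25.3% of tested genes, and in 48.0% when both directions are counted. BCAS mouse 3 had the highest CPM of Irf1, Irf3, Irf5, Irf7, Irf8 and Irf9. The plot of levels by mouse shows a wide gap for Irf5, Irf7 and Irf8 and a narrow one for Irf2 and Irf3.

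**Figure D1:**
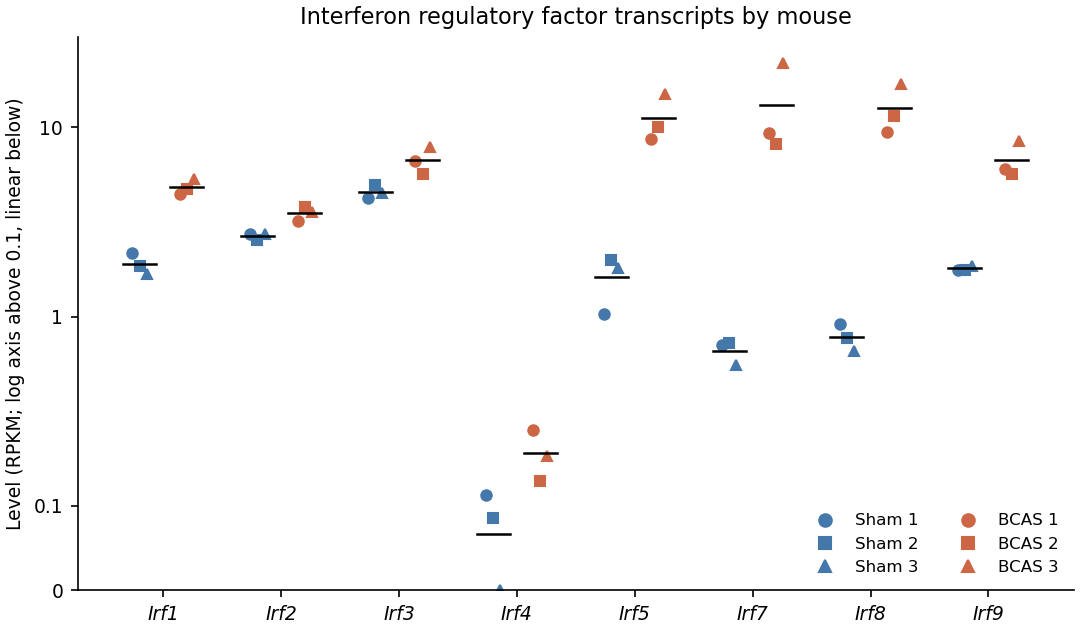
Level of each IRF gene in RPKM (vertical axis, logarithmic above 0.1 and linear below) in the 6 mice. Blue symbols are sham mice, orange symbols BCAS mice, the symbol shape gives the mouse number and black bars are group means. Irf7 and Irf8 lie under 1 RPKM in sham mice and above 8 RPKM in BCAS mice.

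Irf8 encodes a lineage factor of macrophages and microglia that works with the ETS factor PU.1. Its exons span chromosome 8 from 120736358 to 120756694 on the plus strand (identifier ENSMUSG00000041515.10, mm10), and they overlap no exon of another gene. Irf8 had 6.43, 5.45 and 4.64 CPM in sham mice 1 to 3 and 66.8, 81.2 and 119 CPM in BCAS mice 1 to 3. The lowest BCAS mouse stood 10.4 times above the highest sham mouse. The mean was 16.2-fold higher in BCAS mice, at a log2 fold change of 4.02 (SE 0.23). The edgeR adjusted P of 1.6e-05 was the smallest of the family.

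Irf5 encodes a factor downstream of Toll-like receptors and MyD88 that drives inflammatory cytokine genes in myeloid cells. It lies on chromosome 6 from 29526625 to 29541871 on the plus strand (ENSMUSG00000029771.12). Its CPM was 3.01, 5.78 and 5.25 in sham mice 1 to 3 and 25.1, 29.0 and 43.6 in BCAS mice 1 to 3. Sham mouse 1 was the low value of its group, and the groups stayed 4.34 times apart at their nearest values. This amounts to a 6.97-fold higher mean, with a log2 fold change of 2.80 (SE 0.28, edgeR adjusted P = 1.53e-04). Of the exonic length of Irf5, 14.2% overlaps exons of Tnpo3 on the opposite strand, and reads there could be assigned to neither gene because the counting ignored strand.

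Irf7 encodes the interferon-inducible amplifier of type I interferon production. It lies on the minus strand of chromosome 7 from 141262706 to 141266481 (ENSMUSG00000025498.15). Irf7 had 2.66, 2.72 and 2.10 CPM in sham mice 1 to 3, and 35.03, 30.9 and 82.5 CPM in BCAS mice 1 to 3. It showed the largest log2 fold change of the family, 4.31 (SE 0.39, edgeR adjusted P = 1.03e-04), and also a wide spread among BCAS mice (49.5 ± 28.7 CPM, SD, n = 3), with BCAS mouse 3 above the other 2. Without BCAS mouse 3 its log2 fold change was 3.72 and that of Irf8 was 3.74. Of the exonic length of Irf7, 1.19% overlaps Phrf1 on the opposite strand.

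Irf3 encodes the latent relative of IRF7 that is present in most cells before any stimulus and is controlled by phosphorylation. It lies on chromosome 7 from 44997648 to 45002848 (ENSMUSG00000003184.15), and 2.56% of its exonic length overlaps Bcl2l12 on the opposite strand. Irf3 had 14.6, 17.0 and 15.5 CPM in sham mice and 22.7, 19.5 and 26.9 CPM in BCAS mice. The groups were close, with the nearest values a factor of 1.14 apart. Irf3 passed the test (edgeR adjusted P = 0.0153) with a log2 fold change of 0.55 (SE 0.14), under the threshold of a DEG. Its edgeR adjusted P was 0.0662 without sham mouse 1 and 0.0565 without sham mouse 3, and over all alternatives the adjusted P ran from 0.00224 with DESeq2 to 1 with edgeR's glmTreat test, whose null is a log2 fold change of 1.

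Irf9, the gene of the ISGF3 subunit, lies on chromosome 14 from 55603571 to 55610030 (ENSMUSG00000002325.15), and 2.28% of its exonic length overlaps Rnf31 on the same strand. Sham mice were nearly alike, with 9.53, 9.52 and 10 CPM, and BCAS mice had 32.5, 30.5 and 45.3 CPM. The mean rose from 9.68 ± 0.274 to 36.1 ± 8.05 CPM (SD, 3 mice per group). Its log2 fold change was 1.90 with an SE of 0.16 (edgeR adjusted P = 5.99e-05).

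Irf1 encodes an activator of antigen presentation and guanylate-binding protein genes. It lies on chromosome 11 from 53770014 to 53778374 (ENSMUSG00000018899.16), where 3.4% of its exonic length overlaps Gm17334 on the opposite strand. Irf1 had 8.62, 7.36 and 6.65 CPM in sham mice and 17.6, 18.6 and 21.2 CPM in BCAS mice. The BCAS values were tight, and the lowest was 2.04 times the highest sham value. Its log2 fold change reached 1.34 (SE 0.14, edgeR adjusted P = 1.84e-04). Irf1 did not pass glmTreat (edgeR adjusted P = 0.0834), the highest value over its alternatives, of which the lowest was 2.67e-15 with DESeq2.

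Irf2, the gene of the competitor of IRF1, lies on chromosome 8 from 46739732 to 46847458 (ENSMUSG00000031627.9). It had 20.2, 18.7 and 20.1 CPM in sham mice and 23.7, 28.1 and 26.5 CPM in BCAS mice. The nearest values were a factor of 1.18 apart. This was the smallest change of the family, 0.41 on the log2 scale (SE 0.10, edgeR adjusted P = 0.0159). The edgeR adjusted P was 0.0668 without sham mouse 2. Over the alternatives the adjusted P ran from 0.00528 with DESeq2 to 1 with glmTreat.

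Irf4, on chromosome 13 from 30749226 to 30766976 (ENSMUSG00000021356.10), was the least abundant member. It had 19, 14 and 0 counts in sham mice 1 to 3 and 40, 20 and 28 counts in BCAS mice 1 to 3, or at most 1.23 CPM. The groups did not overlap, but sham mouse 1 at 0.561 CPM was close to BCAS mouse 2 at 0.663 CPM. Irf4 did not pass (log2 fold change 1.51, SE 0.79, edgeR adjusted P = 0.179), nor did it under any alternative (adjusted P 0.0925 with limma-voom to 1 with glmTreat). Single libraries moved its size, with a log2 fold change of 0.92 without sham mouse 3 and 2.14 without sham mouse 1, and limma-voom gave 2.60.

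**Figure D2:**
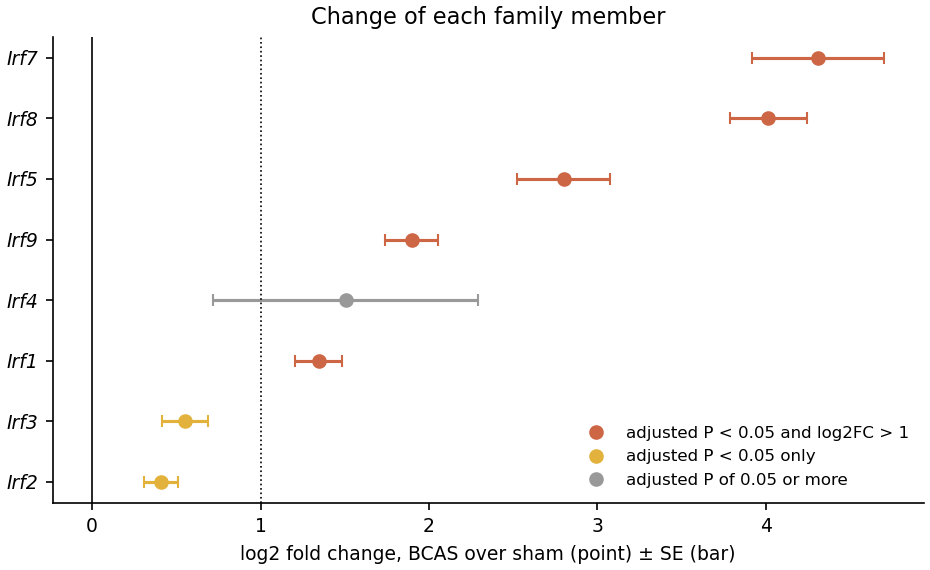
Log2 fold change of BCAS over sham mice (points, horizontal axis) with its standard error (bars) for each IRF gene, ordered by size. The dotted line marks the DEG threshold of 1, and orange points are DEGs, yellow ones passed the adjusted P alone and the grey one did not pass. Irf7 (4.31) and Irf8 (4.02) lie at the top, and Irf4 has the widest error (0.79).

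The order of the transcript levels differed between the groups. In sham mice, per exon length, Irf3 was the most abundant member with 4.56 ± 0.357 RPKM (SD, n = 3), followed by Irf2 with 2.66 ± 0.108 RPKM. Irf1 (1.90 RPKM), Irf9 (1.80 RPKM) and Irf5 (1.61 RPKM) came next, and neighbours among these overlapped. Irf8 (0.780 RPKM) and Irf7 (0.660 RPKM) overlapped each other under them, and Irf4 was last with 0.0666 RPKM. In BCAS mice the order was led by Irf7 (13.1 ± 7.59 RPKM), Irf8 (12.6 ± 3.84 RPKM) and Irf5 (11.2 ± 3.36 RPKM), whose ranges overlapped. Irf7 was first only in BCAS mouse 3 (21.9 RPKM), while Irf8 was first in BCAS mouse 1 (9.46 RPKM) and BCAS mouse 2 (11.5 RPKM). Irf9 (6.71 RPKM) and Irf3 (6.69 RPKM) overlapped as the next pair, then came Irf1 (4.82 RPKM) and Irf2 (3.53 RPKM), with Irf4 last again (0.190 RPKM).

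Summed over the 8 genes, the family had 13.7, 14.7 and 13.8 RPKM in sham mice 1 to 3 and 47.9, 49.6 and 79.1 RPKM in BCAS mice 1 to 3, so that BCAS mouse 3 carried the largest pool. Irf2 and Irf3 together with Irf1 made up most of the pool in sham mice. The share of Irf3 was 32.5 ± 1.35% (sham) against 11.7 ± 1.96% (BCAS; SD, n = 3 each). The share of Irf2 was 19.0 ± 1.49% and 6.30 ± 1.605% respectively. Irf8 accounted for 5.57 ± 0.983% (sham) and 21.4 ± 1.71% (BCAS), and Irf7 for 4.70 ± 0.582% and 21.2 ± 5.77%. For Irf9 the groups overlapped, with shares of 12.05% to 13.5% (sham) and 10.6% to 12.6% (BCAS). For every share but those of Irf4 and Irf9 the groups did not overlap, and an exact two-sided permutation test gave P = 0.1, the smallest that 3 mice against 3 allow.

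**Figure D3:**
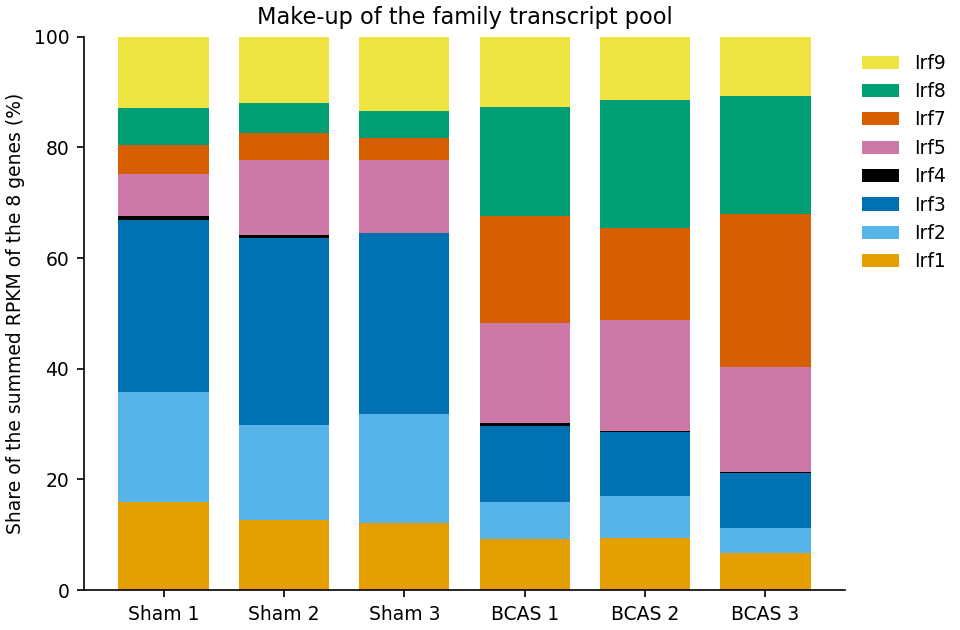
Share of each IRF gene in the summed RPKM of the 8 genes (vertical axis, percent), 1 stacked bar per mouse. Irf2 and Irf3 (light and dark blue) take less of the bars of BCAS mice, and Irf7 and Irf8 (dark orange and green) take more.

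Members with related roles were also compared by their ratio within each library, which does not involve normalization between libraries. The log2 ratio of Irf7 to Irf3, the inducible and the constitutive inducer of interferon genes, was -2.57, -2.75 and -2.98 in sham mice 1 to 3 and 0.49, 0.53 and 1.48 in BCAS mice 1 to 3. On a linear scale the mean ratio moved from 0.147 to 1.78, so that Irf7 was the minor transcript of the pair in every sham mouse and the major one in every BCAS mouse. The log2 ratio of Irf1 to Irf2, activator to competitor, was -0.32, -0.44 and -0.69 (sham) and 0.47, 0.30 and 0.58 (BCAS). The sign differed between the groups without exception, and the difference of 0.94 was larger than the SDs of 0.19 and 0.14. The differences in log2 ratio to Irf3 were 3.43 for Irf8, 2.26 for Irf5 and 1.33 for Irf9. Irf9 and Irf3 were close to even in BCAS mice, with a log2 ratio of -0.0073 ± 0.12. For these 5 ratios the exact two-sided permutation P was 0.1, its minimum (adjusted P = 0.12 over the 6 ratios tested). The ratio of Irf8 to Irf4, the remaining pair, differed by 2.10 and overlapped between the groups (exact permutation P = 0.2). Sham mouse 3, with 0 counts of Irf4, had the high sham value of 5.73. Without this mouse the difference was 3.03, and it was 1.598 without sham mouse 1 and 1.43 with a prior count of 0.5.

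In bulk tissue more cells of a type cannot be told apart from more RNA per cell, so markers of cell types that express IRFs were measured beside the members. All 13 microglial markers were up-regulated DEGs, beside 8.47% of all tested genes. Their summed levels were 386 to 412.5 CPM (sham) and 2037 to 3325 CPM (BCAS). Among them were Fcrls (log2 fold change 3.54) and Aif1, the gene of Iba-1 (3.14). The mean log2 CPM of the 13 markers was higher by 2.53 in BCAS mice. Relative to this mean, the log2 CPM of Irf8 was -1.81, -1.95 and -2.27 in sham mice 1 to 3 and -0.69, -0.46 and -0.57 in BCAS mice 1 to 3, a difference of 1.44 with no overlap. For Irf7 this difference was 1.61, also with no overlap. Irf5 differed by 0.27 relative to the markers and overlapped between the groups, and BCAS mice were nearly alike at -2.02 ± 0.078. Irf9, Irf1, Irf3 and Irf2 were lower against the markers in BCAS mice, with differences of -0.66, -1.19, -1.99 and -2.12. With other sets of microglial markers the difference for Irf9 was smaller or larger, and it stayed negative. For Irf5 the sign of the difference turned without sham mouse 1 (-0.038). Irf4 overlapped between the groups with a difference of -0.66, which was -1.72 without sham mouse 3 and -0.060 without sham mouse 1. The exact two-sided permutation P was 0.1 for Irf1, Irf2, Irf3, Irf7, Irf8 and Irf9 (adjusted P = 0.133 over the 8 members) and 0.7 for Irf4 and Irf5. The share of the microglial markers in the changes of the members was not tested.

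**Figure D4:**
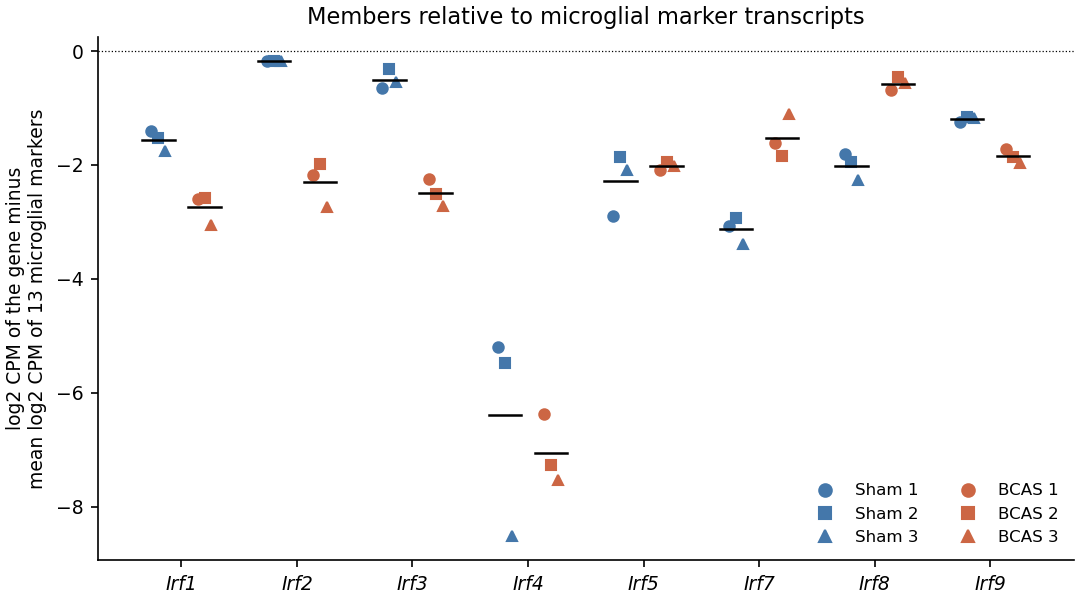
Log2 CPM of each IRF gene minus the mean log2 CPM of 13 microglial markers (vertical axis) in each mouse. Symbols are as in the plot of levels by mouse and black bars are group means. BCAS mice are above sham mice for Irf7 and Irf8, overlap them for Irf4 and Irf5, and are below them for Irf1, Irf2, Irf3 and Irf9.

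Markers of other immune cells were rarer. The counts of markers below stand beside 18.0% of all tested genes that rose and 8.47% that were up-regulated DEGs. Of 9 T cell markers 7 were up-regulated DEGs, with summed levels of 2.30 to 3.12 CPM (sham) and 10.6 to 14.7 CPM (BCAS). Cd8a (4.42) and Cd5 (3.92) had the largest log2 fold changes among those with at least 1 CPM on average, and Cd8b1 was at 0 counts in all sham mice. Border-associated macrophage markers summed to 10.4 to 14.9 and 26.5 to 34.2 CPM (5 of 7 were up-regulated DEGs, among them Mrc1, the gene of CD206, at 1.30), and B and plasma cell markers to 1.92 to 2.19 and 5.93 to 7.28 CPM (3 of 5 tested). Of 9 monocyte and neutrophil markers, 5 were tested and 3 of these were up-regulated DEGs, with sums of 1.05 to 2.51 and 6.402 to 13.4 CPM. These 3 were Ly6c2 (log2 fold change 7.175), Plac8 (4.57) and Ccr2 (3.11). The neutrophil marker Ly6g was at 0 in all 6 libraries. S100a8, which was not tested, had 2, 4 and 9 counts in sham mice and 5, 36 and 24 in BCAS mice. S100a9 had 14, 3 and 28 counts in sham mice and 14, 40 and 44 in BCAS mice, and did not pass. Of 7 tested dendritic cell markers 2 were up-regulated DEGs, Itgax (log2 fold change 6.21) and Xcr1 (2.70), and the other 5 did not pass (Flt3, Zbtb46, Clec9a, Cd209a and Ccr9). Xcr1 was rare, with 4, 0 and 1 counts in sham mice and 10, 10 and 12 in BCAS mice. These immune cells express Irf1, Irf4, Irf7 and Irf8 too, and their part in the changes was not tested. Markers of resident brain cells moved too, with all 7 astrocyte markers higher (3 DEGs, Gfap at 3.29 and Aqp4 at 1.67) and sums of 3656 to 4004 CPM (sham) and 8555 to 9174 CPM (BCAS). Of the endothelial markers 4 of 6 rose (no DEG, Cdh5 at 0.98), of the meningeal fibroblast markers 4 of 5 rose (3 DEGs, Col3a1 at 3.08), and none of 6 oligodendrocyte markers passed. Their part in the changes of the members was not tested either.

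Genes that act with the IRFs were described by lists, chosen with earlier results of these data known. Over all tested genes, 18.0% rose and 8.47% were up-regulated DEGs. Of the DNA-binding partners of IRF4 and IRF8, all 4 tested genes were up-regulated DEGs, with a median log2 fold change of 2.01. Without sham mouse 3 or without BCAS mouse 3, 2 of them were DEGs, and 1 passed glmTreat. Spi1, which encodes PU.1, had 4.15 ± 1.504 CPM in sham mice and 35.9 ± 9.11 CPM in BCAS mice (SD, 3 mice per group), or 3.11 on the log2 scale (SE 0.27, edgeR adjusted P = 8.15e-05). Batf3, a partner in dendritic cells, had a log2 fold change of 1.41. The genes of the IRF2-binding corepressors did not move together: Irf2bp2 rose by 0.43 on the log2 scale (edgeR adjusted P = 0.00899), and Irf2bp1 (-0.096) and Irf2bpl (-0.0093) did not pass.

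Upstream of IRF3, IRF5 and IRF7, 10 of 15 adaptor and kinase genes rose and 8 were up-regulated DEGs, with a median of 1.04, and 5 passed glmTreat. Beside these and the receptor genes below, 18.0% of all tested genes rose and 8.47% were up-regulated DEGs. The largest changes were those of Unc93b1, the chaperone of endosomal Toll-like receptors (2.84), Ticam2, an adaptor of TLR4 (2.75), and Ikbke, the inducible kinase of IRF3 and IRF7 (2.30). Its constitutive relative Tbk1 (-0.045, edgeR adjusted P = 0.66) and Traf3 (-0.023) did not pass. Sting1, the adaptor of cytosolic DNA sensing, rose from 3.92 ± 0.623 to 18.7 ± 5.12 CPM. At the receptor level, 5 of 7 genes rose and 2 were up-regulated DEGs, Ifngr1 (1.66) and Ifnar2 (1.21), of which 1 passed glmTreat, while Jak1 (-0.13) and Ifngr2 (-0.081) did not pass. Stat2, whose product joins IRF9 in ISGF3, rose with a log2 fold change of 0.93 beside the 1.90 of Irf9, and the difference between these genes was not tested.

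None of the 21 interferon genes listed had more than 2 counts in any library, and 17 of them had 0 counts in all 6. A difference in interferon transcripts was not detectable in these counts, which leave out reads with several locations. Ifnb1, the gene of IFN-β, had 2 counts in BCAS mouse 3, and Ifng had 2 counts each in BCAS mice 1 and 2.

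Most of the listed IRF target genes were higher in BCAS mice. The lists were chosen with earlier results of these data known, so their counts describe the lists and test nothing. Across the tested genes, 18.0% rose and 8.47% were up-regulated DEGs. All 19 ISGF3 target genes were up-regulated DEGs, with a median of 3.09 and a range of 1.80 to 5.42, and the largest were Mx1 (5.42), Oas3 (4.83) and Oas1a (4.77), which encode antiviral proteins. Of the 14 ISGF3 targets with a promoter window, 9 hold the ISRE letters, beside 3.99% of all 27025 genes with a window. They are also held by 6 of 12 IRF1 target genes with a window. Of the 20 interferon genes with a window, which had hardly any counts, 11 hold them as well. Because IRFs read ISREs, lists of their targets would often hold these letters whatever the counts were. Of 17 IRF1 target genes, 16 rose and 15 were up-regulated DEGs, with a median of 2.38, led by the chemokine genes Cxcl9 (5.43) and Cxcl10 (5.18) and by Nlrc5 (3.25), the activator of MHC class I genes. Psmb10 (0.49) rose under the fold threshold, and Nos2 (0.54, edgeR adjusted P = 0.254) did not pass. All 8 microglial genes linked to IRF5 and IRF8 were up-regulated DEGs, and 3 of these, Cx3cr1, Csf1r and Aif1, are also among the microglial markers. Il1b was the only one of the 8 whose groups overlapped, with 23, 8 and 9 counts in sham mice and 14, 87 and 95 in BCAS mice (2.41, SE 0.71, edgeR adjusted P = 0.0318). The number of DEGs in this list was 7 without sham mouse 2 or 3 or BCAS mouse 2 or 3. It was also 7 with limma-voom and with a replicate block, and 6 passed glmTreat. P2rx4, a purine receptor gene reported downstream of IRF5 in microglia, had the lowest log2 fold change of this list (1.30), and Tlr2 had the highest (4.90). Of 5 cytokine genes linked to IRF5, 2 were tested, of which Tnf was an up-regulated DEG (4.71) with 0, 0 and 5 counts in sham mice and 33, 44 and 52 in BCAS mice, and Il12a (0.45) did not pass.

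**Figure D5:**
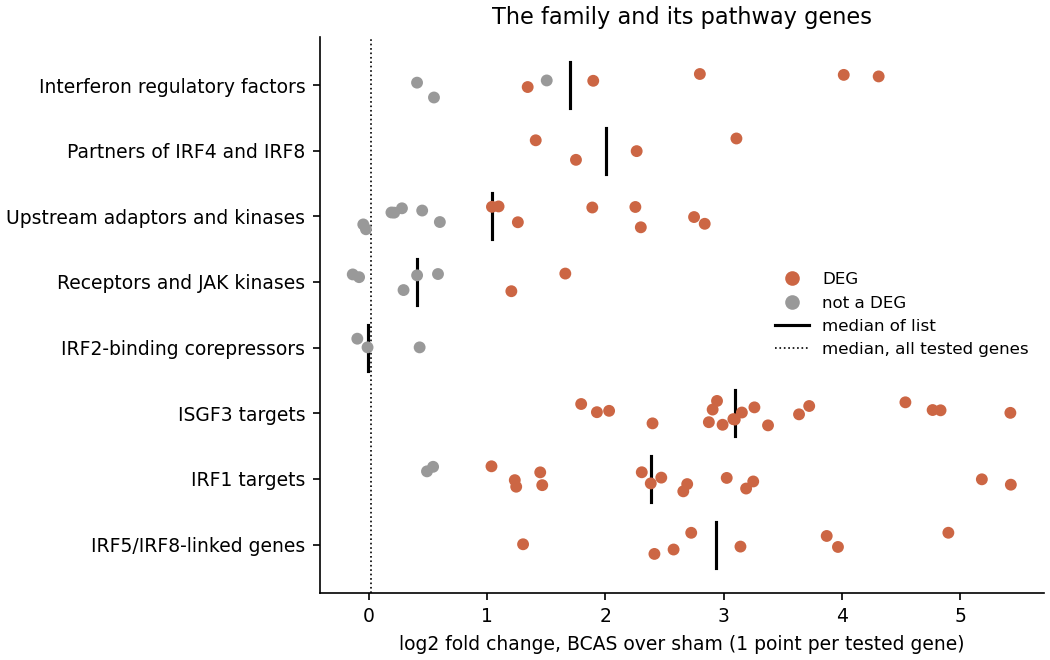
Log2 fold change of BCAS over sham mice (horizontal axis) for the tested genes of the IRF family and of 7 lists of its pathway, 1 point per gene. Orange points are DEGs, black bars are list medians and the dotted line is the median of 0.018 over all tested genes. All 19 ISGF3 targets lie at 1.80 or above, while the IRF2-binding corepressors lie from -0.096 to 0.43.

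For each member that passed the test, the genes with the most similar profile were found as those with the smallest root mean square difference over the 6 libraries, in log2 CPM relative to the sham mean, among 12416 genes with at least 5 CPM on average. Irf8 was most like Cd68, a lysosomal protein gene of macrophages (0.143), and Naip2, an inflammasome sensor (0.146). Irf7 was nearest to Slfn8 (0.233) and Cd68 (0.241), and Irf5 to Rtp4 (0.117) and Gpr183 (0.180). Irf9 was nearest to Rcsd1 (0.0759) and Tep1 (0.0821), and Irf1 to Fgf2 (0.062) and Abcb1b (0.0869). The members with small changes were matched more closely, Irf2 by Trafd1 (0.0407) and Ptprz1 (0.0483) and Irf3 by Acadl (0.0405) and Serpinb9 (0.0418).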

How the data were processed

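Reads were trimmed with Trim Galore, mapped to mm10 with HISAT2 and assigned to genes with featureCounts by the authors. The deposited values are raw counts, 1 library per mouse. Per the file headers, featureCounts 2.0.3 was run with a GENCODE annotation (the submitters' processing notes give version 1.6.3). Each mate counted as its own read regardless of strand, and reads with several locations or genes were left out. Here, counts were filtered with filterByExpr, scaled by TMM and tested with edgeR 4.0.16 (R 4.3.3) without a replicate block. DESeq2 1.42.0 and limma-voom 3.58.1 were among the alternatives. RPKM used the exonic lengths of the tables, and log2 CPM a prior count of 2. Of the 54752 identifiers, 54723 had a symbol, and Sting1 was matched by its RefSeq synonym. The members and lists were chosen with earlier results of these data known. Some results are not reported here. Named genes were the members, the up to 3 largest changes per list (adjusted P under 0.05, mean of at least 1 CPM), list genes against the majority, Ifnb1, Ifng, genes sharing exons and the 2 nearest profiles per member, plus some genes chosen after their values were seen (Sting1, Irf2bp1, Irf2bpl, Psmb10, Nos2, P2rx4, Tnf, Il12a, Il1b, Xcr1, Flt3, Zbtb46, Clec9a, Cd209a, Ccr9, Ly6g, Ly6c2, S100a8, S100a9 and Cd8b1). Steps were tested on simulated data. Promoter sequences are from RefSeq, GRCm38.p6.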

Additional observations from a re-analysis of the deposited data

How the results depend on the processing

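The labels number the mice 1 to 3 in both groups and do not say that the numbers pair them. Residual correlations of same-numbered libraries were 0.036, -0.314 and -0.158, which cannot settle whether mice were paired. The file headers number the BCAS libraries 2 to 4 instead. By those numbers sham mice 2 and 3 would meet BCAS mice 1 and 2 (0.223 and 0.347), a pairing that was not fitted. Choroid plexus markers summed to 4115 CPM in sham mouse 2 and 5982 CPM in BCAS mouse 1. They summed to 70.8 CPM in sham mouse 3 and 48.2 CPM in BCAS mouse 2. The part of these markers in the correlations was not tested. With the replicate number as a block, 6 members passed an adjusted P of 0.05 and 5 were DEGs, and Irf2 had an adjusted P of 0.0509. The number of members that were DEGs was 5 under every alternative but glmTreat with a null of 1, where 4 members passed and Irf1, Irf2 and Irf3 did not. With 1 mouse left out, 6 to 7 members passed. Up-regulated DEGs in the pathway and target lists numbered 58, and 44 to 59 over the alternatives. Scaling by library totals gave a median log2 fold change of 0.095 over the tested genes, and Stat2 was then a DEG, as it was without sham mouse 1. Relative to 5 homeostatic microglial markers alone, the differences were -0.85 for Irf1, -1.65 for Irf3, 1.77 for Irf8 and -0.33 for Irf9. A change of markers moves every member by the same amount, so the difference for Irf5 was also higher against these 5. Relative to Csf1r, Aif1 and Itgam they were -1.51 for Irf1, -2.31 for Irf3, 1.12 for Irf8, -0.98 for Irf9 and -0.057 for Irf5, which changed sign. For Irf5 the difference was -0.038 to 0.48 with 1 mouse left out, with the sign changed without sham mouse 1. For Irf4 it changed sign from -0.66 to 0.016 with a prior count of 0.5. The cause was not tested. The interferon genes had at most 2 counts per library, under the 3 that a count of 0 allows, and differences in them could not be resolved.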
